A study of Mus musculus with 9 samples.

Results

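The Zic genes encode transcription factors with a block of C2H2 zinc fingers that is related to the DNA-binding fingers of the Gli proteins, the nuclear effectors of Hedgehog signalling. Rows for Zic1, Zic2, Zic4 and Zic5 were taken by Entrez ID from a table of 24100 genes, which makes 4 members, and all 4 had enough counts to be tested. Zic proteins act early, when ectoderm takes a neural fate, and later in the dorsal neural tube, the neural crest, the somites and the cerebellum. Zic1 and Zic4 lie together, and loss of both is linked to Dandy-Walker malformation of the cerebellum. Zic2 and Zic5 form another pair. Loss of Zic2 causes holoprosencephaly, a failure of the forebrain to divide, and Zic5 acts in neural crest and in neural tube closure.

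Poly(A) RNA was sequenced from cells labelled as neural cells differentiated from mouse embryonic stem cells. All groups carried a stably expressed PiggyBac transgene for histone H4 with an HA tag, so the control also held a tagged transgene. The transgene was wild type in H4WT, carried arginine in place of lysine 91 in H4K91R, and carried glutamine there in H4K91Q. Each group had 3 libraries, and nothing in the labels says whether these came from separate cultures or clones, so p-values measure only the spread between these libraries, which may be technical. The labels name neither the promoter that drives the transgene nor any change to the cells' own H4 genes.

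Total counts ran from 8970553 to 28887501, with a median of 16364686, and the deepest library was H4WT replicate 2. Neuronal markers were present in all libraries, with a summed level of 218 to 293 CPM over 10 genes in H4WT, 891 to 1102 CPM in H4K91R and 716 to 758 CPM in H4K91Q. CPM is the count scaled to the library total, as counts per 1e+06 after TMM scaling. Smooth muscle markers summed to 4023 to 4837 CPM in H4WT, 485 to 771 CPM in H4K91R and 454 to 509 CPM in H4K91Q. Fibroblast markers, transcripts that neural cells are not known for, summed to 9171 to 10217 CPM in H4WT, 7378 to 8588 CPM in H4K91R and 7680 to 8573 CPM in H4K91Q. Of the 10 fibroblast markers 5 rose and 2 fell in H4K91R, where 21.0% of all tested genes rose and 25.1% fell. In H4K91Q 4 rose and 2 fell, where 22.5% and 23.8% of all tested genes did. Their median log2 changes were 0.13 and 0.28, and Fn1 was among the fallen, at -2.32 ± 0.29 and -2.81 ± 0.29. In bulk RNA, more cells that express a gene cannot be told apart from more RNA of that gene per cell.

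Zic1 and Zic4 are transcribed away from each other on mouse chromosome 9. In the GRCm38.p6 annotation of RefSeq, Zic1 (Entrez 22771) runs on the minus strand at chr9:91358058-91365768 and Zic4 (Entrez 22774) on the plus strand at chr9:91365631-91389351. The annotated 5′ ends overlap by 138 bases there and by 3398 bases in the GENCODE annotation of the same build. The strand setting of the counting is not given, so reads from that overlap cannot be assigned to one gene. Zic5 (Entrez 65100, minus strand, chr14:122459160-122465658) and Zic2 (Entrez 22772, plus strand, chr14:122475384-122480328) are arranged in the same divergent way on chromosome 14, with 9726 bases between their start sites. The long non-coding RNA gene 2610035F20Rik lies between them on the minus strand. It starts 184 bases from the start of Zic2 and is transcribed away from it, toward Zic5.

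The RefSeq promoter table held a window for 3 of the 4 members. The 250 bases before each start site are shown 5′ to 3′ on the gene's own strand, so that the base composition and motifs of the members can be compared. Capitals mark matches to GGGCGG (the GC box) and CCAAT, in either orientation. The windows are chr9:91365769-91366018 (Zic1, minus strand), chr9:91368722-91368971 (Zic4, plus strand) and chr14:122465659-122465908 (Zic5, minus strand).
Zic1: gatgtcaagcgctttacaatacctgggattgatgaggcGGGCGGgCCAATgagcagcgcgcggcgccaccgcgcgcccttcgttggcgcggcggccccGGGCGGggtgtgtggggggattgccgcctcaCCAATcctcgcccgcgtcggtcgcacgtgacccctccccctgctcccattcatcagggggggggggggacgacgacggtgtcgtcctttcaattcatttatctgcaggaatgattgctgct
Zic4: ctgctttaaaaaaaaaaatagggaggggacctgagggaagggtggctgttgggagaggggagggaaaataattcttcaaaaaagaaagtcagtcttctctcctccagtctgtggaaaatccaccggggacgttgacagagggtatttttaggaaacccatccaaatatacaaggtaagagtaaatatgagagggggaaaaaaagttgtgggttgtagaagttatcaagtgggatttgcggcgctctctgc
Zic5: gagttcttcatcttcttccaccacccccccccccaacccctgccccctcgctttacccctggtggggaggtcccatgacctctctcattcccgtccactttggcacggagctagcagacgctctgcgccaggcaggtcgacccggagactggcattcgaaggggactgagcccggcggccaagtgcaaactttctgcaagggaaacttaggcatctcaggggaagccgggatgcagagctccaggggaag
The Zic1 window held 2 GC boxes and 2 CCAAT boxes, and these matches did not overlap each other. GGGCGG was present in 32.7% and CCAAT in 33.9% of 32841 mouse windows of that length. The windows of Zic4 and Zic5 held neither. None of the 3 windows held TATAAA (12.4% of windows), CAGCAGG, the core of the Zic consensus (8.44%), or GACCACCCA, the Gli consensus (0.225%), on either strand. The Zic1 window was rich in CpG, with 27 CpG dinucleotides and 66.0% GC, against a median of 6 and 52.4% over all windows. Zic5 had 11 CpG and 62.4% GC, and Zic4 had 4 CpG and 44.4% GC. The start that the promoter table uses for Zic4 lies 3204 bases from that of Zic1, inside the annotated Zic4 gene. The windows of Zic1 and Zic4 thus differed in base composition, but the bases before the annotated start of the Zic4 gene were not examined.

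The zinc finger coding sequence is alike between members, which bears on how reads are divided among them. Over whole transcripts of the GENCODE M21 annotation, 0.969% of the 31-base words of Zic1, 0.316% of those of Zic2 and 0.445% of those of Zic4 were also found in another member, counted on both strands and so including the antisense overlap of Zic1 and Zic4. For Zic5 there were 0 such words among 4848. Nearly all sequence of each member was thus not shared with the others.

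Zic1 was higher in both mutants. It stood at 6.97, 8.74 and 8.20 CPM in the 3 H4WT libraries (58, 236 and 67 counts). The levels were 17.3, 25.9 and 18.8 CPM in H4K91R and 15.2, 17.9 and 19.9 CPM in H4K91Q. Every mutant library lay above every H4WT library, and the mutants overlapped each other. Zic1 rose by 1.35 ± 0.17 on the log2 scale in H4K91R (SE, n = 3 libraries per group, 2.54-fold, adjusted p = 3.06e-05) and by 1.12 ± 0.17 in H4K91Q (2.17-fold, adjusted p = 1.41e-04, edgeR quasi-likelihood test with Benjamini-Hochberg adjustment over 14761 genes). The difference between the mutants did not pass (H4K91Q minus H4K91R, log2 -0.23 ± 0.15, edgeR adjusted p = 0.399).

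Zic4, the partner of Zic1, was a low-count gene, and 3 counts correspond to 0.111 to 0.367 CPM in these libraries. It had 4, 20 and 4 counts in H4WT, 20, 15 and 19 in H4K91R and 22, 21 and 24 in H4K91Q. These were 0.481, 0.740 and 0.490 CPM in H4WT, 1.15, 1.18 and 1.87 CPM in H4K91R and 0.943, 1.05 and 1.41 CPM in H4K91Q. All mutant libraries again lay above all H4WT libraries. Zic4 rose in H4K91R by 1.10 ± 0.35 on the log2 scale (2.15-fold, edgeR adjusted p = 0.0202). In H4K91Q the difference of 0.82 ± 0.34 did not pass (edgeR adjusted p = 0.0647). The call in H4K91R was lost without H4WT replicate 1 (adjusted p = 0.0523), H4WT replicate 3 (0.0527) or H4K91R replicate 3 (0.0804).

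Zic2 was higher in both mutants and highest in H4K91Q. Its levels were 6.97, 10.6 and 9.91 CPM in H4WT (58, 286 and 81 counts), 13.5, 20 and 16.2 CPM in H4K91R and 20.7, 25.3 and 25.6 CPM in H4K91Q. The 3 groups did not overlap, and 12.5% of all genes were likewise higher in every H4K91Q library than in every H4K91R library. Zic2 rose by 0.81 ± 0.18 on the log2 scale in H4K91R (1.75-fold, edgeR adjusted p = 0.00208) and by 1.34 ± 0.17 in H4K91Q (2.53-fold, adjusted p = 3.26e-05). Between the mutants the difference was 0.53 ± 0.16 (1.45-fold higher in H4K91Q), which missed the threshold over all genes (edgeR adjusted p = 0.0696) but passed it when genes with low counts were kept (adjusted p = 0.0316).

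Zic5, the partner of Zic2, was also a low-count gene, with 7, 55 and 10 counts in H4WT, 39, 33 and 26 in H4K91R and 51, 66 and 53 in H4K91Q. Its levels were 0.841, 2.04 and 1.22 CPM in H4WT, 2.24, 2.59 and 2.56 CPM in H4K91R and 2.19, 3.29 and 3.10 CPM in H4K91Q. H4WT replicate 2, the deepest library, was the highest of its group and stood just below the lowest mutant libraries. Zic5 rose in H4K91Q by 0.86 ± 0.28 on the log2 scale (1.82-fold, edgeR adjusted p = 0.0223), and the difference of 0.65 ± 0.30 in H4K91R did not pass (adjusted p = 0.0915). The size depended on H4WT replicate 2. Without that library the log2 differences were 1.25 in H4K91R (edgeR adjusted p = 0.0140) and 1.45 in H4K91Q (adjusted p = 0.00467). The H4K91Q call was lost without H4WT replicate 1 (adjusted p = 0.0686), H4WT replicate 3 (0.0665), H4K91Q replicate 2 (0.0781) or H4K91Q replicate 3 (0.0576).

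**Figure D1:**
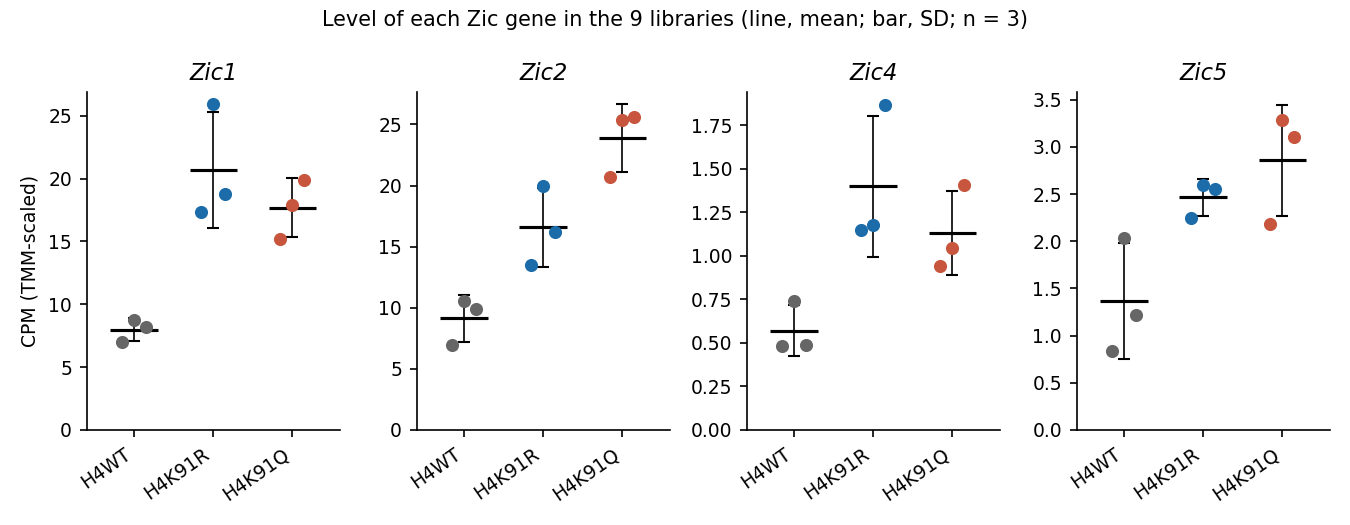
Level of each Zic gene in the 9 libraries, in CPM after TMM scaling, on an axis of its own for each gene. Points are libraries, lines are group means and bars are the SD of 3 libraries. The mutant libraries of Zic1, Zic2, Zic4 and Zic5 sit above all H4WT libraries, and the H4K91Q libraries of Zic2 also sit above those of H4K91R.

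Set beside all genes, 3 of the 4 members rose in H4K91R, where 21.0% of 14761 tested genes rose, and 3 of 4 rose in H4K91Q, where 22.5% did. The 3 were Zic1, Zic2 and Zic4 in H4K91R and Zic1, Zic2 and Zic5 in H4K91Q. This fit did not use the replicate numbers, which were taken to pair H4WT with H4K91Q though no label says so. A replicate block gave 1.16 ± 0.13 (Zic1), 1.39 ± 0.11 (Zic2), 0.81 ± 0.34 (Zic4) and 0.95 ± 0.24 (Zic5) in H4K91Q. With it the same 3 members passed in H4K91Q. The comparisons share the H4WT libraries, and the members were chosen with earlier results of these data known. All 4 members were higher in every mutant library than in every H4WT library, which held for 25.0% of genes in H4K91R and 27.5% in H4K91Q. The median log2 change over all genes was -0.03 in H4K91R and 0.01 in H4K91Q. Scaling by library total alone moved those medians by 0.18 and 0.17 and turned 3093 risen and 3705 fallen genes in H4K91R into 5030 and 2013, and 3314 and 3515 in H4K91Q into 5555 and 2071. The members kept their direction under that scaling, and Zic5 in H4K91R (edgeR adjusted p = 0.0375) and Zic4 in H4K91Q (0.0287) then passed. Over the 3 groups together, Zic1, Zic2 and Zic4 differed (edgeR adjusted p = 6.90e-05, 8.44e-05 and 0.0452) and Zic5 missed the threshold (0.0519), where 50.6% of all genes differed.

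**Figure D2:**
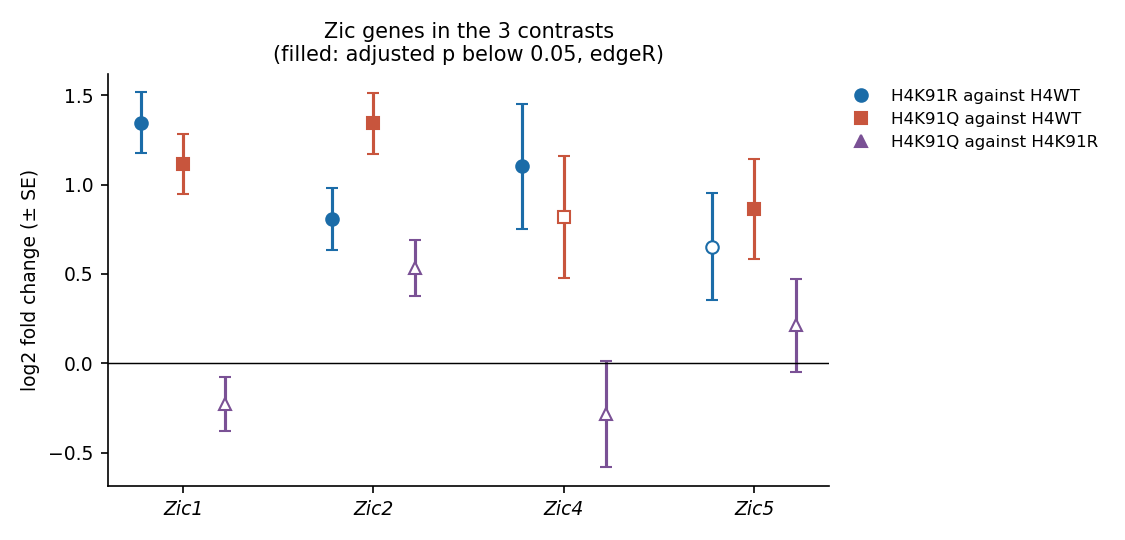
Log2 fold change of each Zic gene with its standard error for the 3 contrasts. Filled symbols mark an edgeR adjusted p below 0.05. Zic1 has the larger value in H4K91R (1.35 against 1.12) and Zic2 in H4K91Q (1.34 against 0.81), and no gene is filled in the contrast between the mutants.

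Between the mutants edgeR called 0 of the 4 members, while 5.16% of all genes were called (2.37% higher and 2.78% lower in H4K91Q). At an unadjusted p below 0.05 there was 1, Zic2, and DESeq2 and limma-voom called 0 each. With no filter on low counts edgeR called 1, Zic2 (log2 0.54).

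The balance of Zic1 and Zic2 changed between groups. A ratio of counts within a library does not depend on how libraries are scaled. Zic1 counts were 1.0, 0.825 and 0.828 times those of Zic2 in the H4WT libraries, 1.28, 1.30 and 1.16 times in H4K91R and 0.735, 0.706 and 0.777 times in H4K91Q. Zic1 thus had more counts than Zic2 in all 3 H4K91R libraries and fewer in all 3 H4K91Q libraries. Counts are not corrected for gene length. Per kilobase of exons Zic2 was the higher gene in each group, in H4K91R with means of 5.75 against 3.63 CPM per kb. Only the shift of the ratio between groups is therefore read here. On the log2 scale, with 0.5 added to each count, the mean ratio was -0.18 ± 0.16 in H4WT, 0.31 ± 0.091 in H4K91R and -0.44 ± 0.069 in H4K91Q (SD, n = 3 each). The groups differed by an exact permutation test of the F statistic over the 3 groups, with p = 0.00357, the smallest value that 1680 arrangements allow, and p = 0.0107 after Benjamini-Hochberg adjustment over the 3 ratios examined. The difference between H4K91Q and H4K91R was -0.75 and lay between -0.80 and -0.72 when each library was left out in turn.

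Within each divergent pair no such shift was detectable. The log2 ratio of Zic1 to Zic4 was 3.71 ± 0.19 in H4WT, 3.86 ± 0.56 in H4K91R and 3.95 ± 0.14 in H4K91Q (SD, n = 3, exact permutation p = 0.714, adjusted 0.714). The log2 ratio of Zic2 to Zic5 was 2.76 ± 0.34, 2.71 ± 0.19 and 3.07 ± 0.15 (SD, n = 3, exact permutation p = 0.257, adjusted 0.386). H4WT overlapped both mutants in each of these ratios, and the lowest H4K91Q library lay just above the highest H4K91R library in Zic2 to Zic5 (7.66 against 7.60 on the linear scale). The low counts of Zic4 and Zic5 limit these ratios. The H4K91R libraries alone spread from 9.82 to 21.3 in the linear ratio of Zic1 to Zic4.

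**Figure D3:**
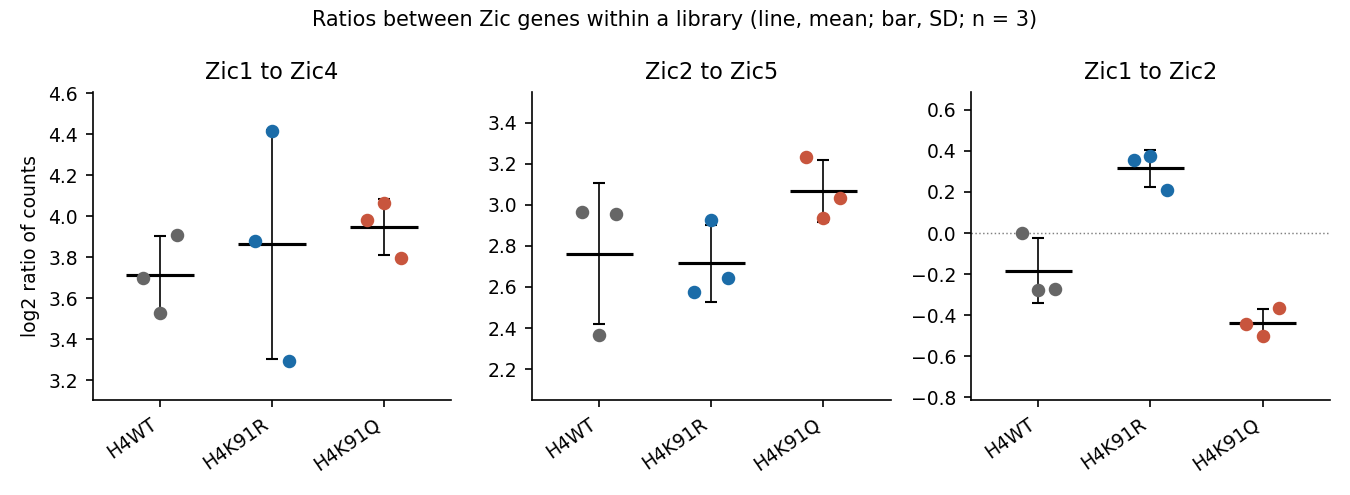
Log2 ratio of the counts of 2 Zic genes within each library, with 0.5 added to each count. Points are libraries, lines are group means, bars are SD (n = 3), and each panel spans the same range of the log2 axis. The Zic1 to Zic2 ratio is above 0 in all H4K91R libraries and below 0 in all H4K91Q libraries, while H4WT overlaps both mutants for the other ratios. Counts are not corrected for gene length, so 0 does not mark equal levels.

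Levels of different genes can be compared only per length. Per kilobase of merged GENCODE M21 exons, Zic2 was the highest member in each group, followed by Zic1, Zic5 and Zic4. In H4WT the means were 3.18 ± 0.67 CPM per kb for Zic2, 1.40 ± 0.16 for Zic1, 0.280 ± 0.12 for Zic5 and 0.0552 ± 0.014 for Zic4 (SD, n = 3). In H4K91R they were 5.75 ± 1.1, 3.63 ± 0.81, 0.504 ± 0.040 and 0.135 ± 0.039 CPM per kb, and in H4K91Q 8.30 ± 0.96, 3.10 ± 0.41, 0.585 ± 0.12 and 0.110 ± 0.024. No neighbours in this order overlapped in any group. The length of Zic4 depends most on the annotation, since its merged exons span 10335 bases and its longest coding transcript 3891, and it was the lowest member by either length. Which transcripts the counts were summed over is not given.

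The genes whose log2 CPM followed each member most closely over the 9 libraries were taken from 12514 named genes (12515 for Zic4) with a mean of at least 2 CPM. These correlations are descriptions over 9 points that share 3 groups, library depth and scaling. Zic1 was most like Nrbp2 (Pearson r = 0.989), Hoxa3, a hindbrain patterning factor (0.988), Slain1, a microtubule protein (0.988), Frmd4b (0.988) and Cntnap2, a neuronal adhesion protein (0.988). Zic2 was most like Iqcc (0.989), Fgd5 (0.981), Lum, a matrix proteoglycan (0.980), Zfp3 (0.979) and Col14a1, a fibril-associated collagen (0.979). Zic5 was most like Eln, the elastic fibre protein elastin (0.984), Mras (0.975), Ntn3, a netrin (0.974), Chrd, the BMP inhibitor chordin (0.967), and Tceal3 (0.965). Zic4 was most like Pink1 (0.986), Ppp1r16a (0.980), Dipk1b (0.979), Pold1 (0.975) and Obsl1 (0.970). A high correlation does not mean a change of like size. Iqcc had log2 changes of 0.16 in H4K91R and 0.27 in H4K91Q, below those of Zic2, and Fgd5 had 0.99 and 1.69, above them. Ppp1r16a had 0.24 and 0.20, below those of Zic4.

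Among all 14760 other tested genes, 0.867% were closer to Zic5 than Zic2 was (r = 0.913), and 1.48% were closer to Zic2 than Zic5 was. For the other pair 6.77% were closer to Zic4 than Zic1 was (r = 0.874), and 10.3% were closer to Zic1 than Zic4 was. Members of different pairs were at times as near: 3.74% of genes were closer to Zic5 than Zic1 was, 4.99% were closer to Zic5 than Zic4 was, and 4.08% were closer to Zic2 than Zic1 was. Zic1 and Zic2 had r = 0.862, and Zic2 and Zic4 had the lowest value among the members, r = 0.736.

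Genes next to the pairs did not share one direction. Beside Zic1 and Zic4 the nearest tested genes lay 861 to 1243 kb away. On one side Tbc1d2b rose in both mutants (log2 0.55 ± 0.11 in H4K91R and 0.36 ± 0.11 in H4K91Q, edgeR adjusted p = 0.00114 and 0.0152). Adamts7, a metalloprotease, rose in H4K91R (0.48 ± 0.097, edgeR adjusted p = 0.00125) and had a log2 change of 0.19 ± 0.096 in H4K91Q, which did not pass (edgeR adjusted p = 0.123). On the other side the scramblase genes Plscr1 and Plscr2 fell in both mutants, with log2 changes of -0.35 and -0.64 in H4K91R and -0.32 and -0.49 in H4K91Q. Their relative Plscr4, 1068 kb from the pair, rose by 1.90 ± 0.31 and 2.33 ± 0.29 on the log2 scale (edgeR adjusted p = 2.42e-04 and 3.03e-05), from 0.847 CPM in H4WT to 3.39 and 4.43 CPM.

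The nearest genes on either side of Zic5 and Zic2 did not pass in either mutant. Pcca, a mitochondrial carboxylase subunit that starts 4.04 kb beyond the end of Zic2, had log2 changes of 0.04 ± 0.087 and 0.08 ± 0.084 (edgeR adjusted p = 0.743 and 0.492). Clybl, 56.9 kb beyond Zic5, had changes of -0.11 ± 0.14 and 0.18 ± 0.13 (edgeR adjusted p = 0.555 and 0.288). The RNA 2610035F20Rik between the pair was near the limit of the counts, at 0.440 CPM in H4WT, 0.717 in H4K91R and 1.17 in H4K91Q. Its changes of 0.45 ± 0.58 and 1.18 ± 0.50 did not pass (edgeR adjusted p = 0.558 and 0.0691). Farther out, Tm9sf2 and Ggact fell in both mutants.

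**Figure D4:**
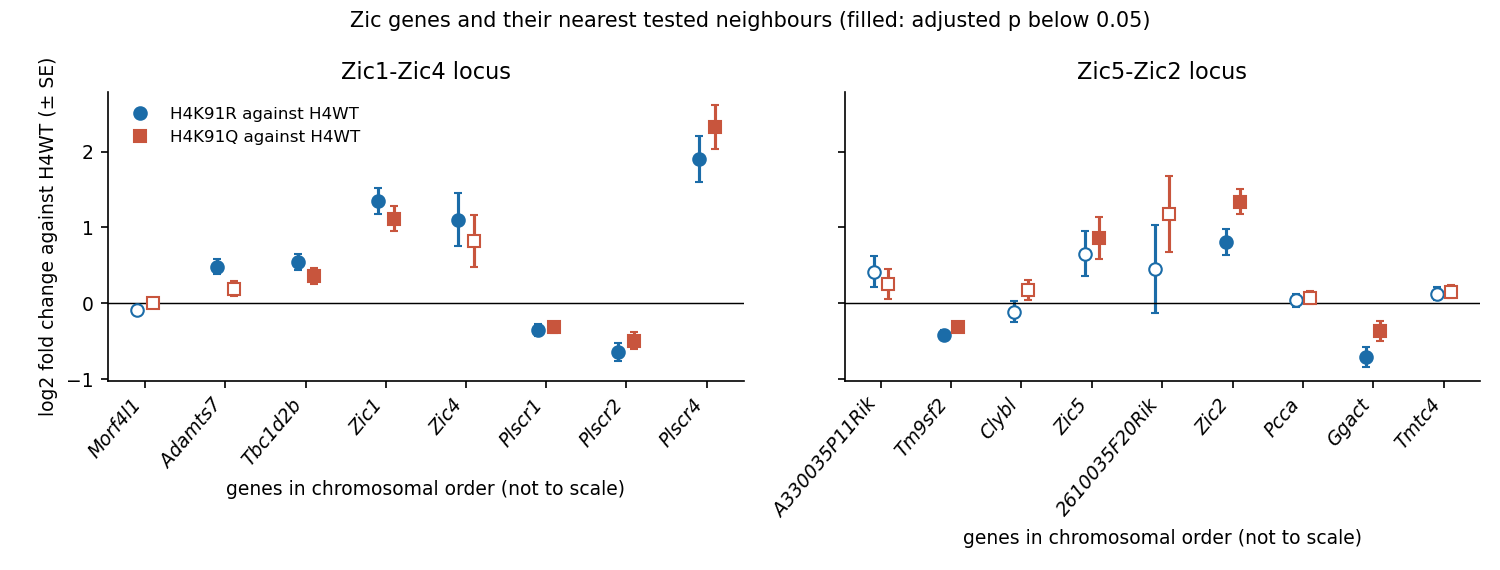
Log2 fold change against H4WT with its standard error for the Zic genes and the 3 nearest tested genes on each side, in chromosomal order and not to scale. Filled symbols mark an edgeR adjusted p below 0.05. Zic2 rises (0.81 and 1.34) while Pcca next to it lies near 0, and Plscr4 has the largest values at the other locus (1.90 and 2.33).

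Genes that work with or beside Zic factors were read from lists, with the count that rose and fell and the median log2 change against medians of -0.03 and 0.01 over all genes. Of all tested genes 21.0% rose and 25.1% fell in H4K91R, and 22.5% rose and 23.8% fell in H4K91Q. Of 16 genes of the Gli family and the Hedgehog pathway, whose zinc fingers the Zic proteins resemble, 7 rose in H4K91R and 6 in H4K91Q, with medians of 0.29 and 0.15. Gli1, a transcriptional readout of the pathway, rose by 2.14 ± 0.15 and 1.96 ± 0.15 on the log2 scale. The receptor Ptch1, which is also a target, rose by 0.81 ± 0.11 in H4K91R and by 0.55 ± 0.11 in H4K91Q. The edgeR adjusted p of both genes ran from 2.45e-07 to 9.55e-04. With library size scaling 13 of the 16 rose in H4K91R and 12 in H4K91Q, where 34.1% and 37.6% of all tested genes rose.

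Zic genes mark the dorsal neural tube, yet dorsal and ventral genes both moved. Of 15 tested roof plate and dorsal genes, 8 rose and 4 fell in H4K91R and 8 rose and 3 fell in H4K91Q, with medians of 0.67 and 0.89. Lmx1a, a roof plate factor named here after its values were seen, rose by 1.58 ± 0.48 in H4K91R (edgeR adjusted p = 0.0164, and 0.0594 without H4K91R replicate 3) and by 2.84 ± 0.40 in H4K91Q. The ligands Bmp4 and Gdf6 fell, with log2 changes of -2.26 ± 0.20 and -2.73 ± 0.33 in H4K91R and -1.68 ± 0.19 and -2.72 ± 0.31 in H4K91Q. The count that rose in H4K91R was 5 without H4WT replicate 1 or 3 and 4 without H4K91R replicate 3. Wnt1, Wnt3a, Pax7, Olig3 and Atoh1 had too few counts to be tested. Of 14 tested floor plate and ventral genes, 8 rose and 1 fell in H4K91R and 8 rose and 2 fell in H4K91Q, with medians of 1.23 and 0.92. Spon1, a floor plate adhesion protein, rose by 2.62 ± 0.12 and 2.16 ± 0.12, and Ntn1, the guidance cue netrin 1, by 1.08 ± 0.097 and 0.79 ± 0.096. Dbx1, an interneuron progenitor factor, rose by 2.91 ± 0.32 and 2.21 ± 0.33. Nkx2-9, of the same list, went the other way, with log2 changes of -1.67 ± 0.29 in H4K91R and -2.01 ± 0.28 in H4K91Q. The count that rose in H4K91Q was 5 without H4K91Q replicate 3, the count that fell there was 1 without H4K91Q replicate 1 or 2, and the count that fell in H4K91R was 2 without H4WT replicate 2.

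Of 15 tested genes of the hindbrain and the cerebellar granule lineage, in which Zic1 and Zic4 act, 10 rose in H4K91R and 9 in H4K91Q, with medians of 1.02 and 0.92. Nhlh1, a factor of new neurons, rose by 3.08 ± 0.24 and 2.34 ± 0.24, Pax2 by 2.34 ± 0.20 and 1.48 ± 0.20, and En2, a midbrain and hindbrain factor, by 2.08 ± 0.22 and 1.60 ± 0.22. Neurod1 did not pass, with log2 changes of -0.06 ± 0.23 and -0.40 ± 0.22 (edgeR adjusted p = 0.860 and 0.155). Barhl1, Barhl2, Pax5 and Lhx9 of this list had too few counts to be tested. Of 15 tested neural crest specifiers 7 rose and 3 fell in H4K91R and 9 rose and 2 fell in H4K91Q, with Sox9 at 0.97 ± 0.10 and 0.91 ± 0.10 and the receptors Ngfr at 3.40 ± 0.18 and 3.20 ± 0.18 and Ednrb at 2.30 ± 0.13 and 1.73 ± 0.13. Sox10 had too few counts to be tested. Ets1 fell, at -1.05 ± 0.18 and -1.19 ± 0.18, as did Myc, at -0.40 ± 0.11 and -0.44 ± 0.11. Tfap2c fell in H4K91R (-0.54 ± 0.19) and rose in H4K91Q (0.83 ± 0.17). The count that fell in H4K91R was 1 without H4WT replicate 1.

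Zic genes are also expressed outside the nervous system, in somites and meninges. Of 11 tested somite and paraxial mesoderm genes 7 rose and 2 fell in each mutant, with medians of 1.17 and 1.11. Tbx6, Mesp1, Mesp2, Msgn1, Myf5, Myod1 and Nkx3-2 of this list had too few counts to be tested. Meox2, a somite factor, rose by 1.67 ± 0.17 and 1.84 ± 0.17 and Dll3, a Notch pathway ligand that neural cells express too, by 2.51 ± 0.21 and 1.77 ± 0.22. In the other direction, Foxc1 changed by -0.72 ± 0.083 in H4K91R and Foxc2 by -1.71 ± 0.25 in H4K91Q. Of 14 tested genes of meninges and perivascular fibroblasts 6 rose and 2 fell in each mutant, with medians of 0.20 and 0.34. Aldh1a2, an enzyme of retinoic acid synthesis, rose by 1.38 ± 0.16 and 1.07 ± 0.15, Lum rose by 1.30 ± 0.29 and 2.43 ± 0.27, and Foxf2, a factor of mural and mesenchymal cells, changed by -1.68 ± 0.18 and -1.28 ± 0.16.

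The early neural and epiblast factors differed between the mutants. Of 14 tested genes 7 rose and 6 fell in H4K91R, and 13 rose in H4K91Q, with medians of 0.17 and 1.34. Tested between the mutants, 6 of the 14 were higher and 1 lower in H4K91Q. Sox2 rose by 1.86 ± 0.14 and 2.02 ± 0.14 and Sox11 by 1.16 ± 0.092 and 0.97 ± 0.092. Sox3, a neural progenitor factor, rose by 2.72 ± 0.22 and 1.96 ± 0.23. Nanog, a pluripotency factor, fell by 0.93 ± 0.31 in H4K91R (edgeR adjusted p = 0.0259) and rose by 2.11 ± 0.24 in H4K91Q. The fall of Nanog in H4K91R did not pass with library size scaling, nor without H4WT replicate 2, H4K91R replicate 1 or H4K91R replicate 2, with edgeR adjusted p up to 0.193. The count that fell in H4K91R was 2 without H4WT replicate 2.

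**Figure D5:**
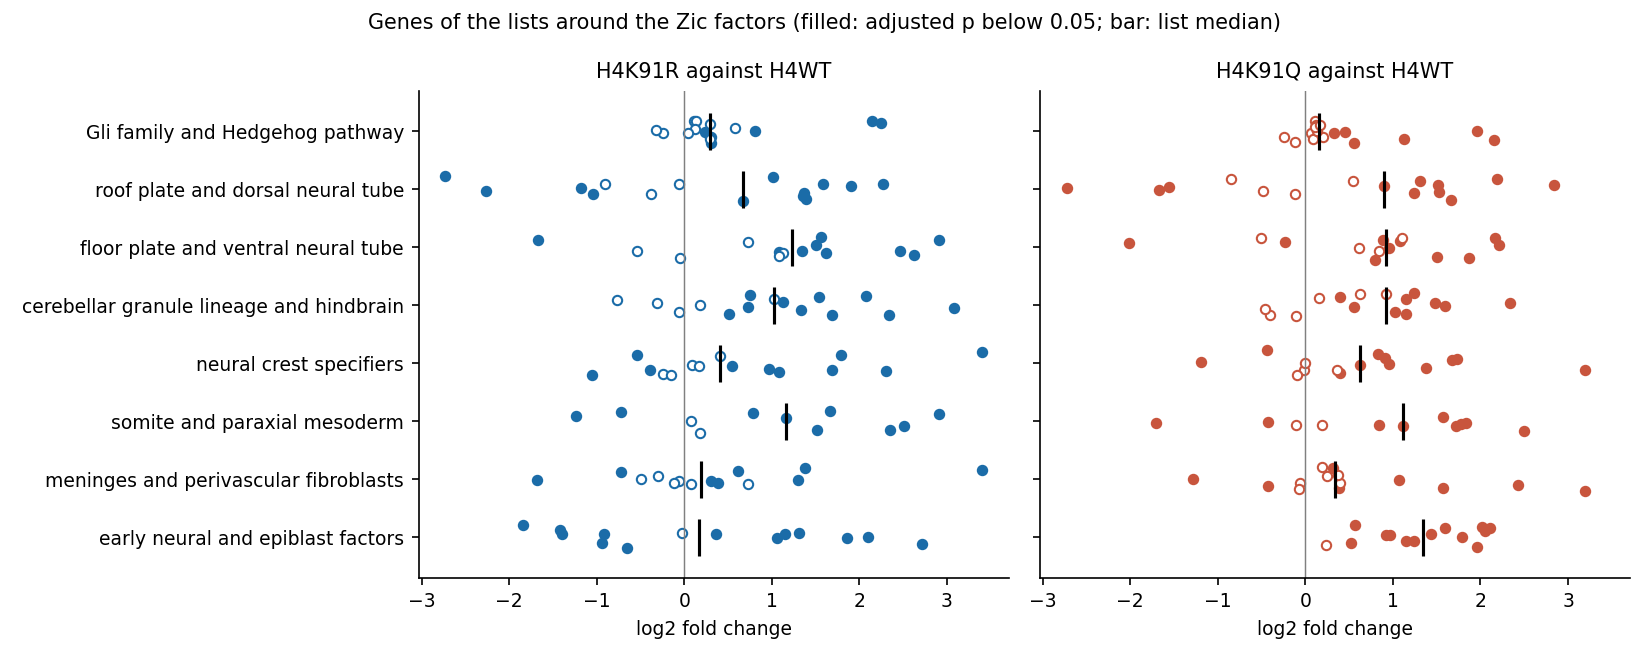
Log2 fold change against H4WT of the tested genes of 8 lists, with H4K91R on the left and H4K91Q on the right. Each point is a gene, filled where the edgeR adjusted p was below 0.05, and the bar is the list median. The dorsal and ventral lists both hold risen and fallen genes, and the epiblast list lies on both sides of 0 in H4K91R (median 0.17) but above 0 in H4K91Q (median 1.34).

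Markers of neural cells rose beside the Zic genes. Of 10 neural progenitor markers 8 rose and 1 fell in H4K91R and 7 rose and 2 fell in H4K91Q, with medians of 1.80 and 1.36, and all 10 neuronal markers rose in each mutant, with medians of 1.93 and 1.57. The summed progenitor level did not follow, at 1898 to 2298 CPM in H4WT, 1883 to 1985 CPM in H4K91R and 1595 to 1647 CPM in H4K91Q, and Vim, which many cell types express, made up 1742 CPM of it on average in H4WT. All 10 progenitor markers were above 0 in each library. All 9 tested smooth muscle markers fell in both mutants, with medians of -3.14 and -3.29. Of 10 pluripotent cell markers 8 fell in H4K91R, and 7 rose and 1 fell in H4K91Q. Their summed level was 299 to 385 CPM in H4WT, 193 to 217 CPM in H4K91R and 328 to 476 CPM in H4K91Q, and 9 of the 10 passed the test as higher in H4K91Q than in H4K91R. The count that fell in H4K91R was 4 without H4WT replicate 2, and that in H4K91Q was 2 without H4K91Q replicate 3. The part of these markers in the Zic differences was not tested.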

How the data were processed

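The authors deposited 1 table of estimated counts per gene, keyed by Entrez ID, for 9 libraries. Per the submitters' processing notes, Salmon 0.8.2, DESeq2 and the mm10 build were used. The annotation, the strand setting, the trimming and the rounding were not given in the sources used here. The deposited estimated counts were already whole, so rounding them changed nothing. Of the 24100 IDs, 24045 matched a symbol in the RefSeq table of GRCm38.p6. Total counts of 8970553 to 28887501 set the precision: 3 counts are worth 0.111 to 0.367 CPM.

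Genes were kept by edgeR's filterByExpr (minimum count 10), which left 14761. All 9 libraries were fitted together with 1 mean per group and TMM scaling, and contrasts were tested with edgeR's quasi-likelihood test (edgeR 4.0.16, limma 3.58.1, R 4.3.3), two-sided, with Benjamini-Hochberg adjustment over all genes tested and a threshold of 0.05. The common biological coefficient of variation was 8.82%. Ratios between Zic genes were tested by an exact permutation test over the 3 groups, since 3 libraries against 3 cannot go below p = 0.1. Alternatives were RLE scaling, library size scaling, DESeq2 1.42.0, limma-voom, no filter, only the groups compared, a replicate block and leaving out each library. The labels do not say what the replicate numbers mark. Same-numbered libraries of H4WT and H4K91Q deviated from their group means together (correlations of 0.17, 0.20 and 0.14), so the numbers were taken to pair H4WT and H4K91Q. The main fit did not use this pairing, which enters only through the replicate block. The numbers were not taken to pair H4WT and H4K91R (0.17, 0.011 and -0.16) or the mutants (0.20, -0.052 and -0.026). The fit was also run on simulated data in which few genes were changed, and the outcome is not reported here. No 2 libraries of a group agreed within sampling noise.

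The members and gene lists were chosen with earlier results of these data known. Named were all members, up to 3 called genes of each list and contrast with the smallest p and a mean of at least 1 CPM, the 5 genes most like each member, and the 3 nearest tested genes on each side of a pair. From these, the text names the part that describes each list, and some genes that the rule names are not reported here. The surface ectoderm, endoderm and endothelium markers summed to 1465 to 1590, 625 to 717 and 50.1 to 59.2 CPM in H4WT. In H4K91R they summed to 869 to 967, 591 to 616 and 47.0 to 55.8 CPM, and in H4K91Q to 943 to 1075, 508 to 551 and 51.4 to 58.2 CPM.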

Additional observations from a re-analysis of the deposited data

How the results depend on the processing

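Of 192 values of the 4 members under alternatives, 179 kept their direction and their side of the threshold. Zic1 and Zic2 kept their calls against H4WT under each alternative run. Scaling by library size alone called Zic5 in H4K91R (log2 0.83, adjusted p = 0.0375) and Zic4 in H4K91Q (0.98, adjusted p = 0.0287). With no filter on low counts Zic2 was called between the mutants (0.54), so that 1 member was called and not 0.

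Leaving out each library in turn gave log2 changes of 0.88 to 1.48 for Zic4 and 0.47 to 1.25 for Zic5 in H4K91R, and of 0.65 to 1.19 for Zic4 and 0.67 to 1.45 for Zic5 in H4K91Q. The ratio of Zic1 to Zic4 (H4K91Q minus H4K91R) ran from -0.20, without H4K91R replicate 3, to 0.36. The cause of these changes was not tested.

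The replicate numbers were taken to pair H4WT with H4K91Q, though no label says so. The replicate block changed no call of a member there: Zic1 had 1.16, Zic2 1.39, Zic4 0.81 (edgeR adjusted p = 0.0671) and Zic5 0.95 (edgeR adjusted p = 0.00621). It moved 2 list counts there by over 1.5 times, hindbrain genes down from 0 to 1 and fibroblast markers up from 4 to 7. H4K91R was not taken as paired by number with either group, and not every library correlated best with its own number. Replicate 2 of H4K91R correlated best with replicate 3 of H4K91Q, and replicate 3 with replicate 2. Replicates 2 and 3 of H4WT likewise correlated best with replicates 3 and 2 of H4K91R. The block joins libraries by number. With the same block, Zic5 was called in H4K91R (0.76, adjusted p = 0.0304) and Zic2 was called between the mutants (0.53, adjusted p = 0.00845), which made 1 member called there.

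Of 102 counts of called list members, 35 moved by over 1.5 times under at least 1 alternative. Counts over all genes between the mutants were 350 up and 411 down, and were 146 and 264 without H4K91R replicate 1, 120 and 68 without H4K91R replicate 2, 200 and 98 without H4K91Q replicate 1, and 110 and 92 without H4K91Q replicate 2. Without H4K91Q replicate 3 the count up was 543, and with DESeq2 the count down was 619. Zic4 had the fewest counts of the members, with 4 counts in 2 of the H4WT libraries, which limits its precision.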

Other observations

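Between the mutants, where 2.37% of all tested genes were higher in H4K91Q and 2.78% lower, the genes below passed the test, and they were chosen after their values were seen. Higher in H4K91Q were the roof plate factor Lmx1a (log2 1.26 ± 0.32) and the Wnt enhancer Rspo3 (0.92 ± 0.22), both listed as dorsal genes. So were Fgf8, a signal of the midbrain-hindbrain boundary (1.68 ± 0.45), Tfap2c, a neural crest and ectoderm factor (1.37 ± 0.17), and Lum (1.14 ± 0.24). Of the early neural and epiblast factors, Otx2 (3.89 ± 0.39), Utf1 (3.19 ± 0.31), Nanog (3.04 ± 0.26), Pou5f1 (2.65 ± 0.26), Dnmt3b (2.07 ± 0.20) and Fgf5 (1.18 ± 0.21) were higher in H4K91Q. Lower in H4K91Q were Spon1 (-0.46 ± 0.099), Pax2 (-0.85 ± 0.16), Nhlh1 (-0.75 ± 0.18), Ednrb (-0.57 ± 0.11), Dll3 (-0.74 ± 0.17) and Sox3 (-0.76 ± 0.18). The edgeR adjusted p ran from 2.72e-04 for Nanog to 0.0484 for Fgf8. Of 34 counts of called list members between the mutants, 17 moved by over 1.5 times under at least 1 alternative.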
